A study of Homo sapiens with 36 samples.

Results

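The 6 CCN genes encode secreted matricellular proteins, and CCN1 and CCN2 are widely read as transcriptional outputs of YAP. Described here are 5 of them, CCN1, CCN2, CCN3, CCN4 and CCN5, together with ANKRD1, AMOTL2 and LATS2, genes that YAP is known to induce. These are 8 of the 66366 named genes in the files, taken by gene symbol. They were chosen after earlier results on these data were known, because CCN5 was higher with the aptamer MinE07 than with the aptamer C36 in H1975 cells while CCN1 and CCN2 were not. That contrast is therefore described and not tested for any of the 8 genes, and for CCN5 the contrast of MinE07 with vehicle in H1975 is treated in the same way. Other tests that reuse the MinE07 or C36 libraries of H1975 are not independent of the choice. Expression was measured in 4 established non-small cell lung cancer lines. The EGFR mutation is L858R in H3255 and L858R plus T790M in H1975. In H820 it is a deletion in exon 19 plus T790M, and A549 is wild type for EGFR. Each line received MinE07, an RNA aptamer directed at EGFR, an extended version of C36 as the control aptamer, or vehicle (DPBS with magnesium) for 24 h. Aptamers were given at 3 µM, and all groups were in medium with 1% serum, RPMI for H3255, H1975 and H820 and DMEM for A549. There were 3 libraries in each of 12 groups, 36 in all, from what the series record calls independent experiments. Each genotype is represented by 1 line, so genotype, lineage and, for A549, medium cannot be told apart.

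In the Hippo pathway, the kinases MST1 and MST2 activate LATS1 and LATS2, which phosphorylate the coactivators YAP and TAZ and keep them out of the nucleus. Unphosphorylated YAP and TAZ bind TEAD transcription factors and raise transcription of CCN1, CCN2 and ANKRD1, and also of AMOTL2 and LATS2, which in turn restrain YAP. SRF with its coactivator MRTF and the AP-1 factors act on several of the same promoters, and TGF-beta induces CCN2. CCN5 differs from the other CCN proteins in lacking the carboxy-terminal cystine-knot domain. It is often described as acting against CCN2, and it is not counted among the usual YAP targets.

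The promoters of CCN2, ANKRD1 and AMOTL2 are shown because these genes moved together in 1 of the lines and because TEAD factors are known to act on them. Windows of 250 bases before the start site were taken from a table of RefSeq promoters (GRCh38.p14) in which 4 of the 8 genes were matched (CCN2, ANKRD1, AMOTL2 and LATS2). Capitals mark matches, on either strand, to the TEAD motif GGAATG and the AP-1 motif TGANTCA. The CCN2 window lies on the minus strand at chr6:131951373-131951622, the ANKRD1 window on the minus strand at chr10:90921088-90921337, and the window of the AMOTL2 start with a match on the minus strand at chr3:134374448-134374697.
CCN2: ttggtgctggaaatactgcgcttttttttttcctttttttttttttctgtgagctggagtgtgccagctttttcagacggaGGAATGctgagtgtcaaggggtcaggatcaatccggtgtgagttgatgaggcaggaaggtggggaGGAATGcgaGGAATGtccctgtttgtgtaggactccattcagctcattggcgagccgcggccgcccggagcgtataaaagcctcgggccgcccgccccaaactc
ANKRD1: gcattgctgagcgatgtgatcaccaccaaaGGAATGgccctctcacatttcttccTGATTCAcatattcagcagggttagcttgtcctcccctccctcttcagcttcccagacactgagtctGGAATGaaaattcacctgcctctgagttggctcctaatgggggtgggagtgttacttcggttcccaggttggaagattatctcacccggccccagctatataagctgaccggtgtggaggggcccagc
AMOTL2: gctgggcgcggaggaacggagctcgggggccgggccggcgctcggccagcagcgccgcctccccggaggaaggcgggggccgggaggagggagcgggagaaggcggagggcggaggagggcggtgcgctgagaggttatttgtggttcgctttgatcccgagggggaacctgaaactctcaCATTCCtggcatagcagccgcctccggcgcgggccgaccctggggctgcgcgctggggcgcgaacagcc
The CCN2 window held 3 copies of the TEAD motif, at 169, 104 and 95 bases before the start site counted to the first base of each copy. At least 3 copies stood in 29 of 34943 promoter windows of this length (0.083%). The ANKRD1 window held 2 TEAD motifs and 1 AP-1 motif. At least 1 TEAD motif stood in 11.9% of all windows, at least 2 in 0.942%, and the AP-1 motif in 6.59%. The AMOTL2 window held 1 TEAD motif, on the opposite strand. The window of the other AMOTL2 start and that of LATS2 had no match to either motif, and none of these windows held a CArG box, the SRF motif, which 1.16% of all windows held. In GENCODE 29 (GRCh38), CCN1 lies at chr1:85580761-85583962 on the plus strand, CCN2 at chr6:131948176-131951373 on the minus strand, and CCN5 at chr20:44714844-44728509 on the plus strand. ANKRD1 lies at chr10:90912096-90921276, AMOTL2 at chr3:134355874-134375479 and LATS2 at chr13:20973032-21061547, each on the minus strand.

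Levels are given as FPKM, fragments scaled for transcript length and library size. Changes are differences of mean log2(FPKM + 0.5), which understates changes of genes near the added value. Each limma fit took genes averaging at least 1 FPKM in its libraries, and those with a p under 0.05 after Benjamini-Hochberg adjustment over the whole fit are named as called. The number of reads is not given by the files. Relative depth, recovered from the steps of low values, ran from 0.590 to 1.38 of the median library. The lowest was vehicle replicate 2 of H3255. In MinE07 replicates 1 and 2 of H820, 6 of 13 mitochondrial genes were listed at 0, against 3 in each of the other H820 libraries. In H1975, C36 replicate 1 listed 3 at 0 and the other libraries none. Epithelial markers were present in every line (6 of 6 above 1 FPKM in all groups), and none of 4 endothelial markers exceeded 0.523 FPKM in any library. Among 4 leukocyte markers PTPRC and CD3E stayed near 0 in all lines. Under vehicle CD14 averaged 1.90 FPKM in H1975, 1.725 in A549, 1.38 in H820 and 0.098 in H3255. CD68, a lysosomal protein also made by tumour cells, averaged 71.5 FPKM in A549, 60.5 in H1975, 16.6 in H820 and 1.95 in H3255 under vehicle.

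Under vehicle the lines differed widely in these genes. CCN1 was highest in H820, at 94.0, 88.8 and 92.0 FPKM, followed by H3255 at 71.5, 79.6 and 74.9, H1975 at 31.2, 33.8 and 32.0, and A549 at 18.6, 17.9 and 18.8. CCN2 had another order, with H3255 first at 35.2 ± 2.99 FPKM (SD, n = 3), then H1975 at 13.5 ± 0.161, H820 at 9.33 ± 0.209 and A549 at 8.87 ± 0.576. The libraries of H820 and A549 overlapped for CCN2, and their log2 difference of 0.07 (95% interval -0.05 to 0.20) did not pass the test (adjusted p = 0.267). CCN1 and CCN2 together made up nearly all CCN expression in H3255 and H820.

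CCN5 was expressed in H1975 (9.82 ± 0.504 FPKM, SD, n = 3) and A549 (8.13 ± 0.635), was low in H820 (1.30 ± 0.107) and was close to absent from H3255, where 2 of 3 vehicle libraries listed it at 0 and the other at 0.034. H1975 exceeded A549 by 0.26 on the log2 scale (adjusted p = 0.00268), but the median gene also differed by 0.19 between these lines. When the libraries were rescaled by medians of ratios, the CCN5 difference fell to 0.05 (adjusted p = 0.487). CCN3 was found mainly in H1975, at 4.13 ± 0.143 FPKM, against at most 0.971 on average in the other lines under vehicle. CCN4 did not exceed 0.256 FPKM in any library, with its highest values in H3255. CCN6, the remaining CCN gene, reached at most 0.050 FPKM, and CCN2-AS1, which is antisense to CCN2, at most 0.041.

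ANKRD1, an ankyrin-repeat protein that shuttles to the nucleus and is a sensitive YAP target, was highest in H820 under vehicle, at 6.12 ± 0.452 FPKM (SD, n = 3), then in H1975 at 2.50 ± 0.258, H3255 at 0.870 ± 0.178 and A549 at 0.570 ± 0.126. AMOTL2, an angiomotin that binds YAP, was at 30.2 ± 0.733 FPKM in H820 and 28.6 ± 0.522 in H3255, a difference of -0.08 (H3255 minus H820, log2) that did not pass the test (adjusted p = 0.0834), though it did without vehicle replicate 1 of A549 (adjusted p = 0.0369). It was lower in A549, at 21.9 ± 1.02, and in H1975, at 13.3 ± 0.316. LATS2, the kinase that phosphorylates YAP, was at 4.55 ± 0.196 in A549 and 4.40 ± 0.115 in H820, which did not differ beyond their spread (adjusted p = 0.439), then at 3.54 ± 0.208 in H1975 and 1.93 ± 0.026 in H3255. All other line pairs of the 7 tested genes were called, but so were most genes. ANKRD1 averaged under 1 FPKM in H3255 and A549, and CCN3 in these lines and in H820. Both entered the fit through the remaining lines, so no test is read between lines where they are that low. CCN5 was near 0 in H3255, so its differences from that line depend on the added 0.5. The share of all tested genes called was 84.3% between H3255 and H1975, 84.7% between H3255 and H820, 85.7% between H3255 and A549, 82.1% between H1975 and H820, 82.8% between H1975 and A549 and 83.8% between H820 and A549.

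**Figure D1:**
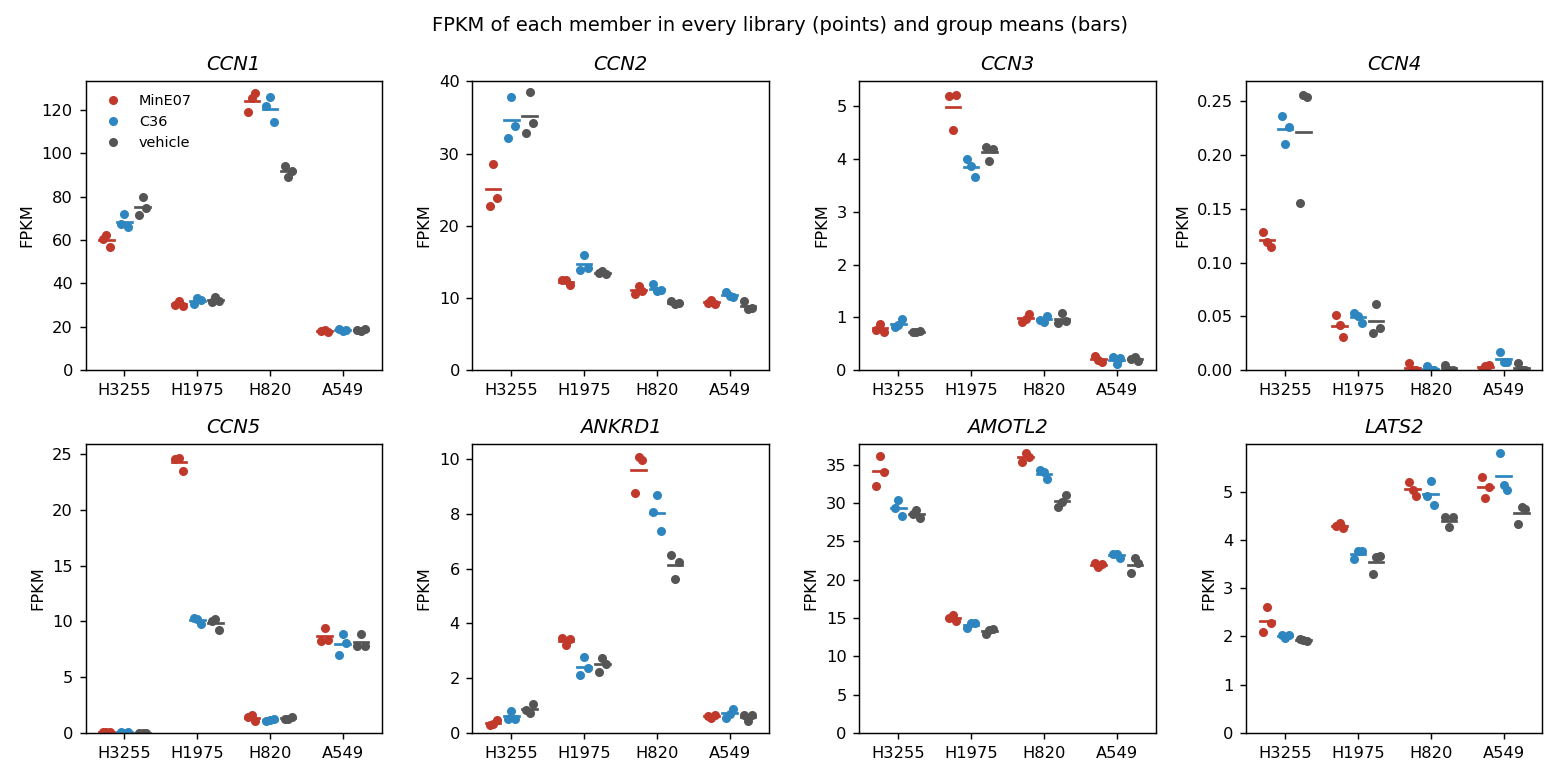
FPKM (y axes, linear, each gene with its own range) of the 8 genes in every library, by line (x axes) and treatment (colours). Points are libraries and bars are means of 3. CCN5 stands at 23.5 to 24.7 FPKM in the MinE07 libraries of H1975 and at 9.25 to 10.3 in the other libraries of that line, while CCN1 in H820 is at 114 to 128 with either aptamer and at 88.8 to 94.0 with vehicle.

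In H1975, CCN5 with MinE07 was at 24.6, 24.7 and 23.5 FPKM. With C36 it was at 10.3, 10.2 and 9.79, and with vehicle at 9.99, 10.2 and 9.25. The MinE07 libraries lay apart from all 6 others, 1.22 above C36 and 1.26 above vehicle on the log2 scale. Without C36 replicate 1 the difference from C36 was 1.23. These values chose the genes and carry no test. C36 against vehicle shares the C36 libraries with that choice, so its test is not independent of it. There CCN5 differed by 0.04 (95% interval -0.05 to 0.14, adjusted p = 0.695). CCN5 made up 33.7% ± 0.281 of the summed FPKM of the CCN genes in MinE07 libraries, 16.7% ± 0.774 in C36 libraries and 16.4% ± 0.622 in vehicle libraries (SD, n = 3).

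CCN1 and CCN2 did not share that pattern in H1975, which restates how the genes were chosen. Their tests against vehicle reuse the MinE07 libraries of that choice. CCN1 was at 29.9, 31.7 and 29.4 FPKM with MinE07, at 30.5, 33.1 and 32.4 with C36 and at 31.2, 33.8 and 32.0 with vehicle. All 3 groups overlapped, and MinE07 differed from vehicle by -0.09 on the log2 scale (95% interval -0.19 to 0.01, adjusted p = 0.159). CCN2 was at 12.5, 12.4 and 11.9 with MinE07, at 13.8, 15.9 and 14.2 with C36 and at 13.5, 13.7 and 13.4 with vehicle. Its MinE07 libraries lay below both controls, but the difference of -0.14 from vehicle did not pass the test (95% interval -0.25 to -0.03, adjusted p = 0.0713). It passed with rescaling by medians of ratios (adjusted p = 0.0438) and without C36 replicate 2 (adjusted p = 0.0202).

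The other YAP-responsive genes and CCN3 were higher with MinE07 than with vehicle in H1975. ANKRD1 was at 3.47, 3.21 and 3.43 FPKM with MinE07 and at 2.24, 2.75 and 2.52 with vehicle, and rose by 0.37 on the log2 scale (SE 0.085, adjusted p = 0.0125). CCN3 was at 5.19, 4.56 and 5.23 against 4.23, 3.97 and 4.19 and rose by 0.24 (SE 0.057, adjusted p = 0.0132). AMOTL2 rose from 13.3 ± 0.316 to 15.0 ± 0.445 FPKM (log2 change 0.17, adjusted p = 0.0069) and LATS2 from 3.54 ± 0.208 to 4.29 ± 0.051 (0.25, adjusted p = 0.00467). In each of the 4 genes no MinE07 library overlapped a vehicle library, but the share of all genes with libraries apart was not counted. Thus 4 of the 6 tested genes other than CCN5 were called, against 23.7% of all genes tested in that comparison. This count is not independent of the choice of the genes. It reuses the MinE07 libraries of that choice, in which CCN1 and CCN2 were known not to be higher than with C36. Without MinE07 replicate 3 the call of CCN3 was lost (0.21, adjusted p = 0.0514). With no filter on low values, which adds many genes to the adjustment, those of CCN3 and ANKRD1 were lost (adjusted p = 0.057 and 0.0631).

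Against C36 in H1975, the contrast that chose the genes, ANKRD1 was 0.41 higher with MinE07, CCN3 0.34, LATS2 0.19 and AMOTL2 0.08, while CCN2 stood at -0.25 and CCN1 at -0.08. In that contrast 19.9% of all tested genes were called. C36 against vehicle gave 0 of 7 called genes in limma, against 0.233% of all genes. An unadjusted p under 0.05 was found for 1 of the 7, and for 2032 of all 14183 genes tested. Markers of fibroblasts moved in the same libraries as CCN5. The summed FPKM of 6 such markers was 16.1 to 17.2 with MinE07, 12.1 to 13.9 with C36 and 12.01 to 13.3 with vehicle. It came from COL1A2 (8.97, 6.78 and 6.45 on average), COL1A1 (6.44, 5.27 and 5.01) and PDGFRB (1.30, 0.887 and 0.924), while COL3A1, DCN and LUM averaged at most 0.114 FPKM in each group. These 3 genes were the ones tested, and all rose against vehicle, by 0.33 to 0.44, where 23.7% of all genes were called. PDGFRB averaged under 1 FPKM with C36 and with vehicle and entered the fit through its MinE07 libraries, so no test is read from it. The part of these markers in the CCN5 difference was not tested. In bulk RNA, more expressing cells and more RNA per cell cannot be told apart.

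Outside H1975, CCN5 was not called with MinE07. In A549, where its level under vehicle was closest to that of H1975, it was at 8.28, 9.39 and 8.37 FPKM with MinE07, at 7.002, 8.87 and 8.02 with C36 and at 7.78, 8.87 and 7.75 with vehicle. These groups overlapped, and MinE07 minus C36 was 0.12 on the log2 scale (95% interval -0.07 to 0.31, adjusted p = 0.638). In H820 it was at 1.45, 1.61 and 1.08 with MinE07, at 1.10, 1.13 and 1.26 with C36 and at 1.23, 1.26 and 1.43 with vehicle, a MinE07 minus C36 difference of 0.17 (95% interval -0.06 to 0.39, adjusted p = 0.608). In H3255 it was at most 0.097 FPKM in any library and was not tested. The difference between H1975 and the other lines holds the contrast that chose the gene and was not tested.

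**Figure D2:**
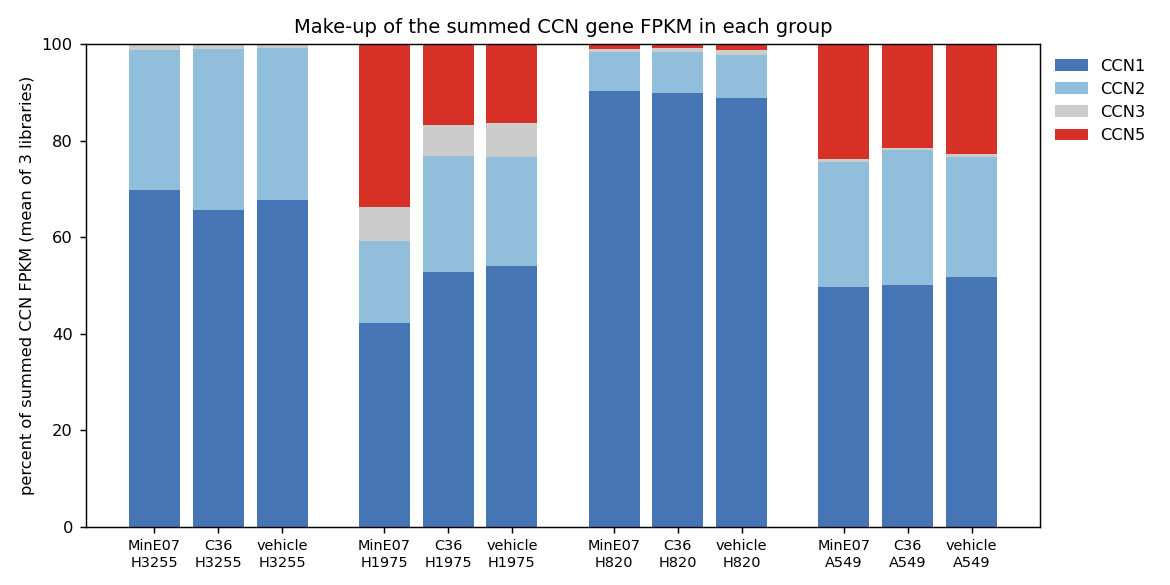
Stacked bars of the mean percentage of summed CCN1 to CCN6 FPKM (y axis, starting at 0) held by CCN1, CCN2, CCN3 and CCN5 in each group of 3 libraries (x axis). CCN4 and CCN6 are too low to draw. CCN5 takes 33.7% with MinE07 in H1975 and 16.7% with C36, while in A549 it takes 23.9% and 21.4%, and in H820 and H3255 the bars are almost all CCN1 and CCN2.

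In H3255 the YAP-responsive genes split. CCN1 was at 60.4, 62.3 and 56.7 FPKM with MinE07, at 67.3, 72.0 and 65.9 with C36 and at 71.5, 79.6 and 74.9 with vehicle. MinE07 lay below both controls, and CCN1 fell by 0.19 on the log2 scale against C36 (SE 0.051, adjusted p = 0.0131) and by 0.33 against vehicle (adjusted p = 0.000566). CCN2 was at 22.7, 28.6 and 23.8 with MinE07, at 32.2, 37.9 and 33.9 with C36 and at 32.8, 38.5 and 34.2 with vehicle. It fell by 0.46 against C36 (SE 0.099, adjusted p = 0.00717) and by 0.49 against vehicle (adjusted p = 0.00546), with no overlap. ANKRD1 was too low to be tested in this line. It was at 0.303, 0.340 and 0.475 FPKM with MinE07, at 0.511, 0.799 and 0.516 with C36 and at 0.832, 0.714 and 1.06 with vehicle, so its MinE07 libraries were again the lowest. CCN4 stood at 0.115 to 0.128 with MinE07, 0.211 to 0.237 with C36 and 0.156 to 0.256 with vehicle. CCN3 stood at 0.729 to 0.880, 0.812 to 0.964 and 0.719 to 0.735, so its MinE07 libraries overlapped both controls.

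AMOTL2 and LATS2, the genes of the group whose products restrain YAP, stood on the other side in H3255. AMOTL2 was at 32.3, 36.1 and 34.0 FPKM with MinE07, at 29.4, 30.4 and 28.3 with C36 and at 28.6, 29.1 and 28.1 with vehicle. It rose by 0.21 against C36 (SE 0.043, adjusted p = 0.00334) and by 0.25 against vehicle (adjusted p = 0.00122). LATS2 was at 2.09, 2.60 and 2.27 with MinE07, at 2.03, 1.96 and 2.03 with C36 and at 1.95, 1.93 and 1.90 with vehicle. It rose by 0.21 against vehicle (SE 0.064, adjusted p = 0.023), while its difference of 0.17 from C36 did not pass the test (adjusted p = 0.0635), but did without MinE07 replicate 1 (0.23, adjusted p = 0.0187). So 3 of the 4 tested genes were called between MinE07 and C36, 1 higher and 2 lower, and 4 of 4 between MinE07 and vehicle, 2 in each direction. Of all genes tested in H3255, 36.7% and 38.6% were called in these comparisons. C36 against vehicle gave 0 of 4 in limma, against 0.305% of all genes. An unadjusted p under 0.05 was found for 1 of the 4 (CCN1, -0.14), and for 2136 of all 13429 genes tested. Without C36 replicate 2 the CCN1 call between MinE07 and C36 was lost (-0.15, adjusted p = 0.0529), and the LATS2 call against vehicle was lost without MinE07 replicate 2, vehicle replicate 2 or vehicle replicate 3 (0.14 to 0.22, adjusted p = 0.0803, 0.052 and 0.061). Both calls were also lost with no filter on low values (adjusted p = 0.0657 and 0.0755).

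In H820 the same genes were higher with either aptamer than with vehicle. CCN1 was at 119, 125 and 128 FPKM with MinE07, at 122, 126 and 114 with C36 and at 94.0, 88.8 and 92.0 with vehicle. The aptamer groups overlapped each other and lay above vehicle, by 0.43 for MinE07 (SE 0.041, adjusted p = 0.000861) and 0.39 for C36 (adjusted p = 0.00245). ANKRD1 was at 8.74, 10.1 and 9.96 with MinE07, at 8.06, 8.68 and 7.37 with C36 and at 6.49, 5.61 and 6.26 with vehicle. Its rise was 0.61 for MinE07 (SE 0.074, adjusted p = 0.00286) and 0.37 for C36 (adjusted p = 0.0324). CCN2 was at 10.6, 11.7 and 10.98 with MinE07, at 11.97, 10.9 and 11.1 with C36 and at 9.54, 9.12 and 9.33 with vehicle, and rose by 0.24 (adjusted p = 0.0247) and 0.26 (adjusted p = 0.0155). AMOTL2 rose from 30.2 ± 0.733 with vehicle to 35.9 ± 0.626 under MinE07 (0.25, adjusted p = 0.00169) and 33.8 ± 0.591 under C36 (0.16, adjusted p = 0.0155).

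LATS2 in H820 averaged 4.40 ± 0.115 FPKM under vehicle, 4.95 ± 0.256 under C36 and 5.05 ± 0.150 under MinE07 (SD, n = 3). Its differences from vehicle of 0.18 and 0.15 did not pass the test (adjusted p = 0.0572 and 0.0904), although the libraries did not overlap. CCN5 did not pass either, at 0.05 with MinE07 and -0.11 with C36. In all, 4 of the 6 tested genes were called in each comparison with vehicle, all of them higher, against 3.02% of all genes with MinE07 and 2.85% with C36. The comparisons share the vehicle libraries. MinE07 against C36 gave 0 of 6 in limma, against 0.0364% of all genes. An unadjusted p under 0.05 was found for 2, ANKRD1 at 0.24 and AMOTL2 at 0.09, with no overlap of libraries. Of all 13753 genes tested, 1396 had an unadjusted p under 0.05. The share of all genes with libraries apart was not counted, here or for LATS2. Beside these changes LUM, a fibroblast marker, averaged 37.3 FPKM under vehicle, 41.6 under C36 and 44.3 under MinE07, and the other 5 fibroblast markers stayed under 1 FPKM on average. LUM rose by 0.25 with MinE07, and its part in these changes was not tested.

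The H820 calls differed in how they held when a library was left out. CCN1 in both comparisons, and ANKRD1 and AMOTL2 with MinE07, were called whichever library was left out. The call of CCN2 with MinE07 was lost without MinE07 replicate 2 or 3 or any vehicle replicate (0.20 to 0.25, adjusted p = 0.0582 to 0.0892). With C36, the call of CCN2 was lost without C36 replicate 1 or vehicle replicate 2 (adjusted p = 0.0662 and 0.0683), that of AMOTL2 without C36 replicate 1 or 2 or vehicle replicate 1 or 2 (0.0565 to 0.0816), and that of ANKRD1 without C36 replicate 1 or 2 or any vehicle replicate (0.057 to 0.115). Without MinE07 replicate 1, the library with the lowest summed FPKM, CCN1 rose by 0.46 and ANKRD1 by 0.67 with MinE07, and the 4 calls stood. With C36, only the call of CCN1 stood with no filter on low values.

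In A549, 1 of the 5 tested genes was called in 1 comparison. CCN1 was at 18.1, 18.6 and 17.4 FPKM with MinE07, at 19.0, 18.3 and 18.5 with C36 and at 18.6, 17.9 and 18.8 with vehicle, and the groups overlapped. CCN2 was at 9.35, 9.66 and 9.18 with MinE07, at 10.8, 10.3 and 10.2 with C36 and at 9.53, 8.52 and 8.55 with vehicle. It rose by 0.22 with C36 against vehicle (SE 0.049, adjusted p = 0.0298), against 6.0% of all genes. That call was lost without any of the C36 libraries, MinE07 replicate 1 or vehicle replicates 2 or 3 (0.20 to 0.24, adjusted p = 0.0526 to 0.1). MinE07 against C36 gave 0 of 5 in limma, 1 with an unadjusted p under 0.05 (CCN2 at -0.14), and 0% of all genes. MinE07 against vehicle gave 0 of 5, 1 with an unadjusted p under 0.05 (LATS2 at 0.15), and 0.216% of all genes. Of all 13425 genes tested, 1455 and 1865 had an unadjusted p under 0.05 in these comparisons, in that order. LATS2 with C36 was 0.20 above vehicle (adjusted p = 0.0715), and AMOTL2 0.08 above (adjusted p = 0.27). CD68, of the leukocyte list, rose with C36 by 0.40 in the same libraries, to 94.3 ± 2.08 from 71.5 ± 7.96 FPKM. CD14, the only other gene of that list tested, stood lower, at 1.54 FPKM with C36 against 1.725 with vehicle (-0.13, not called). The part of CD68 in the CCN2 difference was not tested.

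**Figure D3:**
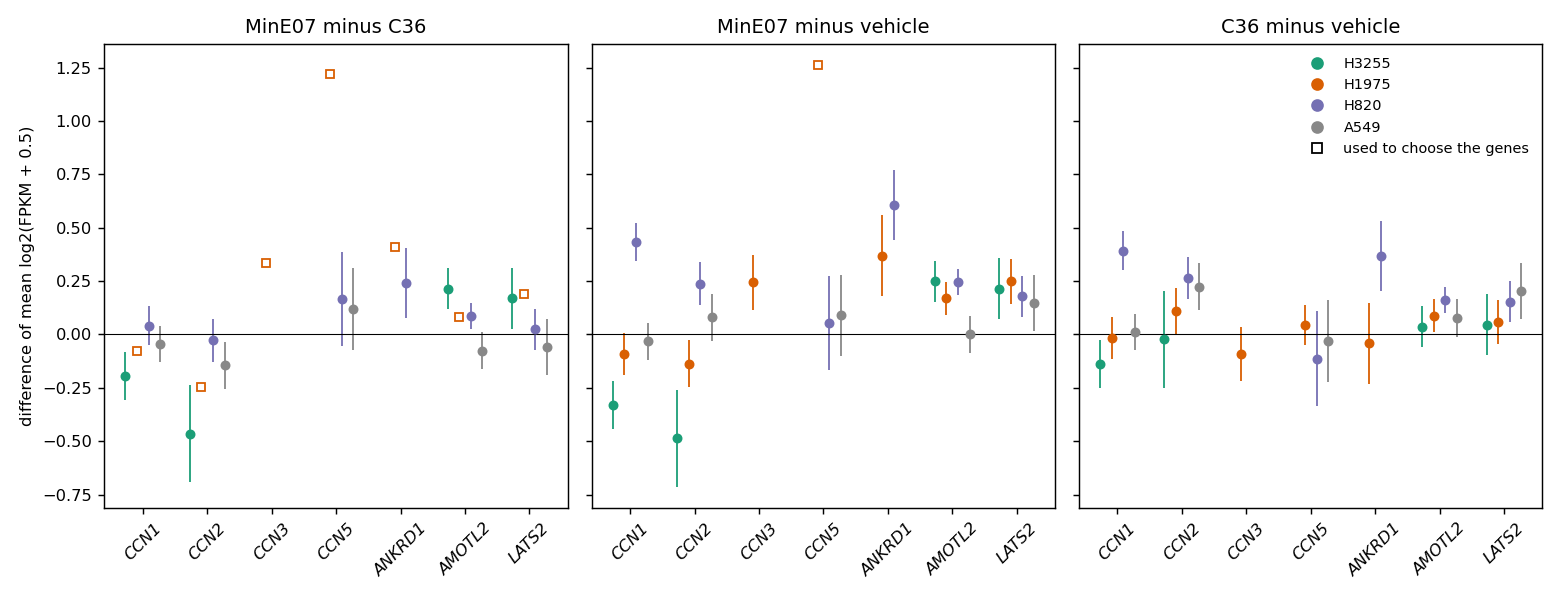
Log2 changes (y axis, difference of mean log2(FPKM + 0.5)) of the tested genes (x axis) in each line (colours) for the 3 comparisons. Circles with bars are estimates with 95% intervals, and open squares are values that chose the genes, drawn without intervals. CCN1 and CCN2 lie below 0 in H3255 with MinE07 and above 0 in H820 with either aptamer, and CCN5 in H1975 stands at 1.22 and 1.26 for MinE07.

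Differences between lines in these changes were tested as interaction terms, with all 36 libraries in 1 fit of 18 terms. Terms with MinE07 against C36 in H1975 hold the contrast that chose the genes and were not tested. The 11 tested terms in which any of these genes was called are described, and the remaining tested terms gave no call. For MinE07 against vehicle, CCN1 in H3255 lay 0.77 below its change in H820 (-0.77, adjusted p = 4.01e-10), CCN2 0.72 below (-0.72, adjusted p = 1.63e-06) and ANKRD1 1.26 below (-1.26, adjusted p = 6.27e-07). AMOTL2 and LATS2 differed by 0.00 and 0.04 between these lines (adjusted p = 0.974 and 0.789). The term called 24.4% of all genes. Between H3255 and H1975 the same 3 genes were called, CCN1 at -0.24 (adjusted p = 0.0102), CCN2 at -0.35 (0.0119) and ANKRD1 at -1.02 (2.46e-05), against 15.7% of all genes. ANKRD1 averaged under 1 FPKM in every group of H3255 and A549 and entered the fit through H1975 and H820. Its terms with H3255 or A549 therefore depend on the added 0.5. Between H1975 and H820, CCN1 (-0.53, adjusted p = 3.04e-06) and CCN2 (-0.37, adjusted p = 0.00926) were called and ANKRD1 was not (-0.24, adjusted p = 0.353), against 13.2% of all genes. Terms with H1975 reuse its MinE07 libraries, which took part in the choice of the genes.

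For MinE07 against vehicle, each of the 3 other lines also differed from A549. In H3255, CCN1 (-0.30, adjusted p = 0.000955) and CCN2 (-0.57, adjusted p = 5.77e-05) lay below their change in A549, with 24.5% of all genes called. AMOTL2 lay above it (0.25, adjusted p = 0.000414). ANKRD1 stood at -0.70, but it averaged under 1 FPKM in every group of both lines. It entered the fit through its levels in H1975 and H820, so no test is read from this value. In H820, CCN1 (0.47, adjusted p = 6.1e-05) and AMOTL2 (0.25, adjusted p = 0.00444) exceeded A549, with 2.84% of all genes called. ANKRD1 missed the threshold there (0.55, adjusted p = 0.0526) and passed it in several of the fits with a library left out, for example without C36 replicate 2 of H3255 (adjusted p = 0.0355). In H1975, AMOTL2 exceeded A549 (0.17, adjusted p = 0.0236), with 13.2% of all genes called. That call was lost without MinE07 replicate 2 or vehicle replicate 1 of H1975 or vehicle replicates 2 or 3 of A549 (0.14 to 0.16, adjusted p = 0.053 to 0.0802). CCN3 (0.26, adjusted p = 0.0878) passed without MinE07 replicate 1 of A549 or MinE07 replicate 2 of H1975 (adjusted p = 0.0478 and 0.0496). However, CCN3 averaged under 1 FPKM in every group outside H1975 and entered the fit through that line, so no test is read from these values.

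For MinE07 against C36, the changes of CCN1 (-0.23, adjusted p = 0.0103), CCN2 (-0.44, adjusted p = 0.00152) and ANKRD1 (-0.58, adjusted p = 0.00893) in H3255 lay below those in H820, with 18.9% of all genes called. AMOTL2 (0.13, adjusted p = 0.0781) passed only without C36 replicate 2 or MinE07 replicate 1 of H3255 (adjusted p = 0.0441 and 0.0182). Against A549, CCN2 in H3255 was lower (-0.32, adjusted p = 0.0142) and AMOTL2 (0.29, adjusted p = 6.65e-05) and LATS2 (0.23, adjusted p = 0.0255) were higher, with 25.2% of all genes called. Only the AMOTL2 call stood without C36 replicate 2 of H3255, where CCN2 was at -0.26 (adjusted p = 0.0566) and LATS2 at 0.21 (adjusted p = 0.0537). The CCN2 call was also lost without MinE07 replicate 1 of H3255 (adjusted p = 0.0571), and the LATS2 call without MinE07 replicate 2 of H3255, C36 replicate 1 of A549 or MinE07 replicate 2 of A549 (adjusted p = 0.113, 0.101 and 0.0696). ANKRD1 in H3255 was under 1 FPKM in all but 1 library, so its log2 values there depend on the added 0.5.

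The rise of CCN1 with the control aptamer was larger in H820 than in each of the other lines. C36 against vehicle in H820 exceeded H3255 by 0.53 (adjusted p = 7.18e-06), H1975 by 0.41 (adjusted p = 0.00049) and A549 by 0.38 (adjusted p = 0.000456). ANKRD1 also differed between H3255 and H820 in that comparison (-0.67, adjusted p = 0.0174). These terms called 1.96%, 1.33% and 6.16% of all genes. ANKRD1 averaged under 1 FPKM in H3255 and entered the fit through H1975 and H820, so its term depends on the added 0.5. With 0.1 added instead it was not called (adjusted p = 0.0513), nor with no filter on low values (adjusted p = 0.0502). The ANKRD1 call was lost without C36 replicate 1 or 3 or vehicle replicate 3 of H3255 or without C36 replicate 2 or vehicle replicate 2 of H820 (-0.62 to -0.57, adjusted p = 0.0608 to 0.0673), while CCN1 was called whichever library was left out.

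Other target genes of YAP and TEAD were described from a list of 17. In H3255, 2 rose and 6 fell of 14 tested between MinE07 and C36, where 36.7% of all genes were called. F3, which encodes tissue factor, fell from 28.0 ± 0.916 to 14.1 ± 0.347 FPKM (log2 change -0.97), and GADD45A, a stress-response gene, changed by -0.47. ARHGEF17 rose by 0.41 and PTPN14, a phosphatase that binds YAP, by 0.16. The median was -0.09, against -0.01 over all tested genes. In H1975, MinE07 against vehicle, 1 rose and 2 fell of 16 (23.7% of all genes called), ARHGEF17 by 0.29, F3 by -0.50 and NT5E, an ecto-nucleotidase, by -0.39, with a median of -0.03 against 0.00 over all genes.

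In H820, where 3.02% of all genes were called with MinE07 and 2.85% with C36, most of the listed targets were not called. With MinE07, 4 rose and 1 fell of 16, TGFB2, a TGF-beta ligand, from 34.3 ± 1.38 to 43.2 ± 0.923 FPKM (0.33), FJX1 by 0.32 and NT5E by -0.31, with a median of 0.13 against 0.01 over all genes. With C36, 5 rose and 1 fell of 16, with FJX1 at 0.31, TGFB2 at 0.28 and NT5E at -0.27, and a median of 0.10. In A549 with C36, GADD45A rose by 0.29 and TGFB2 fell by 0.23 among 16 tested genes (6.0% of all genes called).

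Targets of SRF and MRTF, many of them actin cytoskeleton genes, were described from a list of 12. In H3255, 1 rose and 6 fell of 9 between MinE07 and C36 (36.7% of all genes called), with FLNA (filamin A) at -0.48, FHL2 at -0.41 and TPM1 (tropomyosin) at 0.35. The median was -0.24, against -0.01 over all genes. In H1975, MinE07 against vehicle, MYL9 (myosin light chain) rose by 0.27, ACTG1 by 0.15 and FHL2 fell by 0.14, of 10 tested (23.7% of all genes called). In H820, 3 of 12 rose with MinE07 and 4 of 12 with C36, against 3.02% and 2.85% of all genes, and none was called lower. TPM1 was at 0.29 and 0.22 and ACTB (beta-actin) at 0.17 in both. In A549 with C36, 0 of 9 were called in limma, against 6.0% of all genes. An unadjusted p under 0.05 was found for 2 of the 9, and for 3157 of all 13425 genes tested.

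Genes that act upstream of the targets were described next. Of 14 genes of the Hippo kinase cascade, 1 rose (WWC1, 0.36) and 6 fell in H3255 between MinE07 and C36, led by FRMD6 (-0.41) and TAOK3 (-0.33), against 36.7% of all genes called in either direction. In H1975, MinE07 against vehicle, 2 of 14 fell, MAP4K4 (-0.18) and NF2 (-0.16), against 23.7% of all genes. In H820, 0 of 14 were called in limma with MinE07 or C36 against vehicle, against 3.02% and 2.85% of all genes. An unadjusted p under 0.05 was found for 3 and 4 of the 14, and for 2570 and 2527 of all 13753 genes tested. In A549 with C36, 1 of 14 was called, SAV1 at 0.24, against 6.0% of all genes. Among YAP1, WWTR1 (which encodes TAZ) and the 4 TEAD genes, TEAD4 rose by 0.46 and WWTR1 fell by 0.21 in H3255 between MinE07 and C36. In H1975, MinE07 against vehicle, TEAD4 (-0.35) and WWTR1 (-0.19) both fell. YAP1 was not called in either. Of 6, 0 were called in H820 in limma with either aptamer against vehicle (2 with an unadjusted p under 0.05 in each), beside the same counts over all genes. Of the YAP-binding proteins, AJUBA rose (0.41) and VGLL4 fell (-0.19) in H3255 between MinE07 and C36. With MinE07 against vehicle, VGLL4 rose (0.20) and AMOTL1 fell (-0.48) in H1975, and AJUBA rose in H820 (0.19).

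Lists for other inputs to CCN2 and for the receptors of CCN proteins were described in the same way. Of 8 tested TGF-beta and SMAD targets, 1 rose (LTBP2, 0.24) and 3 fell in H3255 between MinE07 and C36, led by BHLHE40 (-0.89) and TGFB1 (-0.28), against 36.7% of all genes called. In H1975, MinE07 against vehicle, 4 of 9 tested rose and none fell, led by SKIL (0.33), a SMAD corepressor, and TGFBI (0.24), against 23.7% of all genes. In H820, PMEPA1 (0.24) and COL4A1 (0.19) rose with MinE07, of 10 tested (3.02% of all genes called). In A549 with C36, 1 of 9 rose and 1 fell (TGFBI, -0.15), against 6.0% of all genes called. Among Wnt targets, DKK1, a secreted Wnt inhibitor, fell in H3255 (-0.44 against C36), in H1975 with both aptamers (-0.27 for MinE07 and -0.29 for C36, each against vehicle) and in A549 (-0.26, C36 against vehicle), and NOTUM rose in H820 with MinE07 (0.66). For 9 receptors, the H3255 values are MinE07 against C36 and the H1975 values MinE07 against vehicle, so the lines are not compared. LRP1, an endocytic receptor that binds CCN2, rose in H3255 (0.33) and H1975 (0.36). ITGA6 (-0.50) and ITGA5 (-0.18), integrin alpha subunits, fell in H1975, NOTCH1 (-0.25) and ITGB1 (-0.15) in H3255, and ITGB3 rose in H820 (0.22 with MinE07). In A549 with C36, ITGA5 rose by 0.24 and ITGA6 fell by 0.23.

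**Figure D4:**
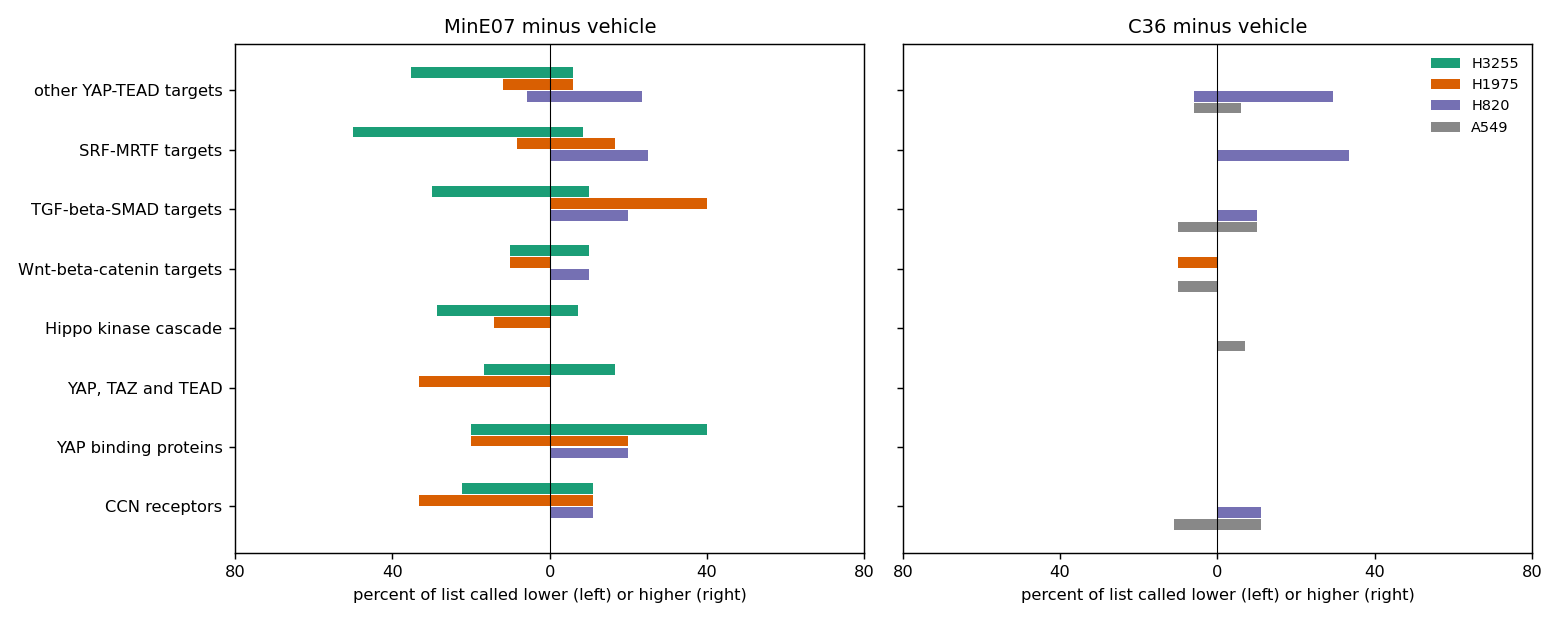
Percentage of each list (x axis, of all listed genes including those too low to test) called higher (right of 0) or lower (left of 0) with MinE07 (left panel) or C36 (right panel) against vehicle, by list (y axis) and line (colours). The H820 bars for other YAP-TEAD and SRF-MRTF targets point mainly to the right in both panels, and those of H3255 with MinE07 mainly to the left.

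Over the 36 libraries, after the mean of each line was subtracted, the genes most like CCN5 in log2(FPKM + 0.5) among 14571 were TMEM86A (Pearson r = 0.91), GSN, which encodes the actin-severing protein gelsolin (0.89), and the entry IFITM10-2, 1 of the numbered copies of a gene name (0.89). Those most like CCN1 were SAMD4A (0.86), CLDN1, a tight-junction claudin (0.86), and THBS1, which encodes thrombospondin (0.82). Those most like CCN2 were JUN, an AP-1 subunit (0.87), the cytokine gene LIF (0.86) and TNFRSF12A (0.86). Within the group CCN1 followed CCN2 (0.76) and AMOTL2 followed LATS2 (0.83), while CCN5 stood at -0.24 with CCN1 and -0.35 with CCN2. These libraries share treatments, the 3 MinE07 libraries of H1975 stand apart for CCN5, and the values are descriptions.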

How the data were processed

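RNA was sequenced from 36 libraries of 4 human cell lines under 3 treatments. Poly-A enrichment and a stranded kit were used, per the labels. The authors deposited FPKM per gene for each library. Per the submitters' processing notes, HISAT2 and Cuffdiff were used with GRCh38.p12; their roles, versions and annotation were not stated there. Of 68271 entries per file, 1874 without a gene name and 31 with repeated names were left out (each at most 0.0028% of summed FPKM). Numbered copies of a name were kept as separate genes. FPKM mixes length and depth scaling, so a change in a few abundant genes shifts all others.

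Values were analysed as log2(FPKM + 0.5) using limma 3.58.1 under R 4.3.3, plus statmod 1.5.0, with trend and robust moderation, two-sided. Genes with a mean of at least 1 FPKM were tested, in each line (9 libraries, 3 group means), among the 12 vehicle libraries, and in 1 fit of 36 libraries for differences between lines. Intervals are at 95% and unadjusted. The 0.5 dampens changes of low genes. The fits were tested on simulated data. Relative depth came from low-value steps; 99.2% of 630 library pairs closed within 0.005 log2, and the range was 2.35-fold. No counting interval was possible.

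The genes, lists and tests were chosen with earlier results of these data known. All 8 genes are named, and of each list up to 2 called genes per direction and line by size of change. YAP1, LUM, CD68 and other markers were named after their values were seen. The 3 most similar genes of CCN5, CCN1 and CCN2 were taken by Pearson r. Separate cultures are stated by the series record only in general terms, so p-values measure the spread between these libraries. Alternatives were 2 other pseudocounts, no filter, rescaling by medians of ratios, limma without moderation options, no numbered copies, a replicate block, 1 fit of all libraries, and each library left out. Promoter windows and motifs were read with Python 3.11.15 and pandas 2.3.3. Windows for CCN1, CCN5 and any gene on chromosome 8 were not used here. The gene of the TGF-beta list called higher in A549 with C36 is not reported here.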

Additional observations from a re-analysis of the deposited data

Results flagged for a closer look

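The change of a gene differed between 2 lines by an interaction term in 25 cases among the 11 terms described (limma, adjusted p under 0.05). These terms were kept because at least 1 of these genes was called in them, and they called 1.33% to 25.2% of all genes. The other tested terms of the 18 fitted gave no call. All values are log2 differences of differences, the first line minus the second, and the terms share libraries. For MinE07 against C36, H3255 minus H820 gave -0.23 for CCN1, -0.44 for CCN2 and -0.58 for ANKRD1. H3255 minus A549 gave -0.32 for CCN2, 0.29 for AMOTL2 and 0.23 for LATS2. For MinE07 against vehicle, H3255 minus H1975 gave -0.24 for CCN1, -0.35 for CCN2 and -1.02 for ANKRD1, and H3255 minus H820 gave -0.77, -0.72 and -1.26 for these genes. H1975 minus H820 gave -0.53 for CCN1 and -0.37 for CCN2. H3255 minus A549 gave -0.30 for CCN1, -0.57 for CCN2, -0.70 for ANKRD1 and 0.25 for AMOTL2. That ANKRD1 value is counted among the 25, although the gene averaged under 1 FPKM in every group of H3255 and A549. The other ANKRD1 values given here all involve H3255 and so depend on the added 0.5. H820 minus A549 gave 0.47 for CCN1 and 0.25 for AMOTL2, and H1975 minus A549 gave 0.17 for AMOTL2. For C36 against vehicle, CCN1 stood at -0.53 for H3255 minus H820, -0.41 for H1975 minus H820 and 0.38 for H820 minus A549, and ANKRD1 at -0.67 for H3255 minus H820.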

How the results depend on the processing

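No called result changed direction under the alternatives run, while 21 results that were not called (sizes up to 0.079 on the log2 scale) changed sign under at least 1. Without the filter on low values, which tests more genes, the number of called genes was 2 for MinE07 minus vehicle in H1975 (4 in the analysis reported), 1 for C36 minus vehicle in H820 (4), 0 in A549 (1) and 1 for the H3255 minus H820 difference in C36 minus vehicle (2). A pseudocount of 0.1 also gave 1 there, and it took the CCN5 difference between H3255 and H820 in MinE07 minus vehicle from 0.13 to 0.63 (adjusted p = 0.0106), with FPKM near 0 in H3255. In 1 fit of all 36 libraries 5 genes were called for MinE07 minus C36 in H3255 (3 in the analysis reported), where genes under 1 FPKM in that line also enter, and 2 for C36 minus vehicle in A549. The cause of these shifts was not tested beyond the number of genes tested.

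Same-numbered libraries were not paired by the labels. Deviations from group means correlated at -0.16 to 0.25 over 36 pairs, with 8 above 0.1, and in 9 of them the library correlated best with its own number. With a replicate block, C36 minus vehicle gave 1 call in H820 and 0 in A549, the call of CCN2 for MinE07 minus vehicle in H820 was lost (adjusted p = 0.0699, and 0.128 with no filter on low values), and the H1975 minus A549 difference in MinE07 minus vehicle gave 2 calls (1 in the analysis reported). A pseudocount of 1 also gave 2 there, among them CCN3 (adjusted p = 0.0292), which averaged under 1 FPKM in every group of A549.

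With 1 library left out at a time, the calls ranged from 3 to 5 for MinE07 minus vehicle in H1975, 2 to 4 for MinE07 minus C36 and 3 to 4 for MinE07 minus vehicle in H3255, 3 to 4 for MinE07 minus vehicle and 1 to 4 for C36 minus vehicle in H820, and 0 to 1 for C36 minus vehicle in A549. For differences between lines they ranged from 1 to 3 for MinE07 minus C36 between H3255 and A549, 3 to 4 between H3255 and H820, 0 to 2 for MinE07 minus vehicle between H1975 and A549 and 2 to 3 between H820 and A549, and 1 to 2 for C36 minus vehicle between H3255 and H820. Absolute depth is unknown, and no floor is given for genes listed at 0.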
